A study of Homo sapiens with 9 samples.

Results

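The 2 hairpins against ASAH1 were compared directly with each other in MDA-MB-231, a human cell line from a triple-negative breast cancer. All of the cells were grown in DMEM with 10% fetal bovine serum and stably expressed a small hairpin RNA (shRNA): ASAH1 shRNA #1 in 3 libraries, ASAH1 shRNA #2 in 3 libraries and a non-specific (NS) control shRNA in 3 libraries. The comparison took the 6 knockdown libraries of the 9 in the series and the genes whose mean normalized signal over those 6 was at least 10, which left 14240 of 26485 genes. The normalized signal is the number of reads on a gene divided by a size factor of the library, and both hairpins were placed on 1 scale through the NS shRNA libraries. Ratios are given as shRNA #2 over shRNA #1 throughout, and the NS shRNA values are given to show where the control lay. The labels do not say whether replicates of a hairpin came from separately infected populations, so that p-values measure only the spread between these libraries. The hairpin sequence, the ASAH1 that was left and the cell population in which each hairpin was expressed cannot be told apart with 1 population label per hairpin.

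ASAH1 encodes acid ceramidase, a lysosomal enzyme that cleaves ceramide into sphingosine and a fatty acid. Sphingosine can be phosphorylated to sphingosine-1-phosphate, so that the enzyme stands between lipids linked to growth arrest and death and a lipid linked to survival and migration. A hairpin RNA is cut by DICER1 to a short duplex whose guide strand directs Argonaute proteins to matching messenger RNAs, and 2 hairpins against 1 gene share their intended target but not their sequence.

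The recovered reads on genes ran from 23806003 to 39791698 per library with shRNA #1, from 35653318 to 49659106 with shRNA #2 and from 30989598 to 34867548 with NS shRNA. The first principal component of the 6 knockdown libraries separated the hairpins and held 82.7% of the variance, against 6.51% for the second. The 12 mesenchymal markers of the line, among them VIM, CD44 and AXL, were above 3 reads in every library. The estrogen receptor gene ESR1, the progesterone receptor gene PGR and the fibroblast gene DCN were at or near 0. Other members of their lists were expressed. Of 12 luminal markers, 7 were above 3 reads in every library of each group, KRT19 and XBP1 among them. Of 10 fibroblast markers, 6 were so with NS shRNA and 5 with either ASAH1 hairpin, COL1A1 among them. The library of shRNA #1 replicate 1 stood apart for RNAs that lack a poly(A) tail, which are given separately below with and without it. In bulk RNA, fewer cells of a kind and less RNA per cell cannot be told apart.

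The hairpins left different amounts of their target. ASAH1 (chr8:18055992-18084961 in GRCh38) had normalized signals of 1268, 1365 and 1348 with shRNA #1, 721, 746 and 705 with shRNA #2 and 4436, 4512 and 4518 with NS shRNA, so that the libraries fell into 3 separate levels. These levels were 29.6% of the NS shRNA mean with shRNA #1 and 16.1% with shRNA #2. Between the hairpins the log2 ratio was -0.87 (standard error 0.059, adjusted p = 2.92e-06 from limma), and the two-sided exact permutation test over the 6 libraries gave p = 0.1, the smallest that 3 libraries against 3 allow.

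Apart from ASAH1, the hairpins differed in a large part of the transcriptome. Of 14240 genes, 9078 (63.7%) had an adjusted p below 0.05 from limma, 4598 of them higher with shRNA #2 (32.3%) and 4480 lower (31.5%). The groups of 3 libraries did not overlap for 9663 genes (67.9%). Most differences were small, as the middle of the distribution ran from a log2 ratio of -0.36 at the 25th percentile to 0.33 at the 75th, with a median of 0.01. A difference of at least 2-fold with an adjusted p below 0.05 was found for 1687 genes (11.8%), of which 558 were higher (3.92%) and 1129 lower (7.93%) with shRNA #2. The genes at least 2-fold lower were weakly expressed, with a median signal of 62.5 against 194.8 for those at least 2-fold higher and 948 for all genes tested. The NS shRNA mean lay between the means of the hairpins for 338 of the 558 higher genes and for 697 of the 1129 lower genes, while for the rest it lay outside both.

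**Figure D1:**
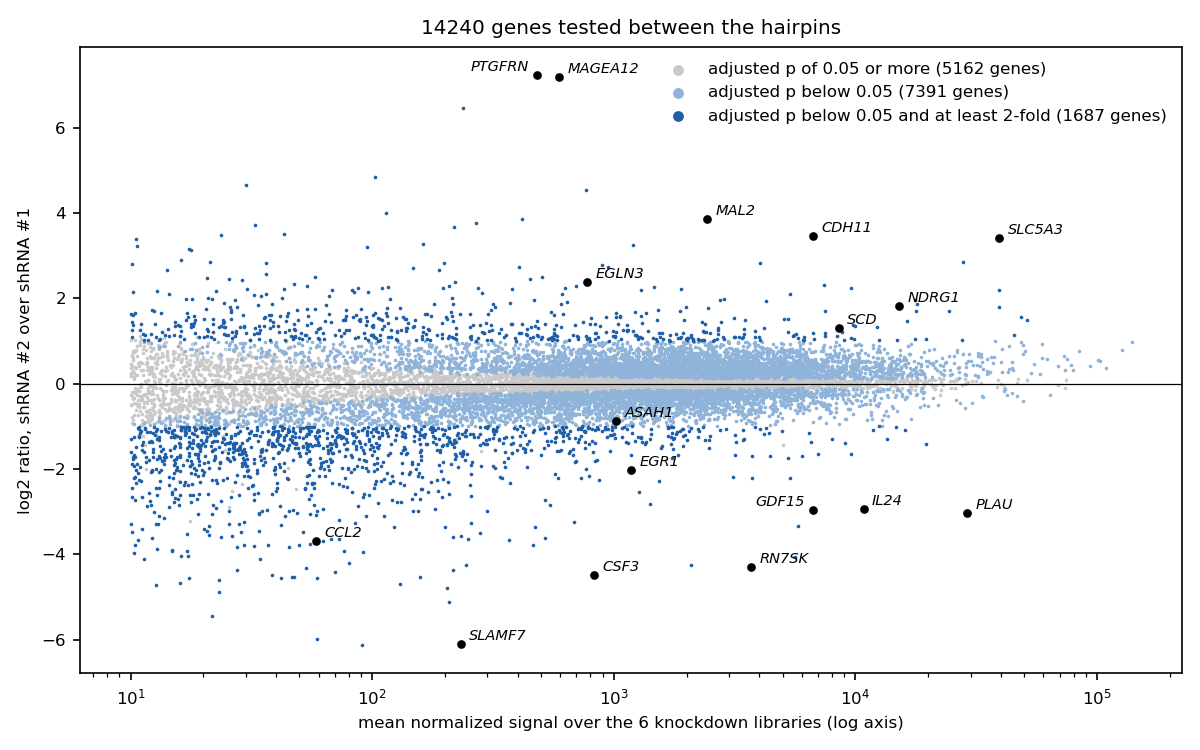
Each point is 1 of the 14240 genes tested, with the mean normalized signal over the 6 knockdown libraries on a log axis and the log2 ratio of shRNA #2 over shRNA #1 (dark blue, adjusted p below 0.05 and at least 2-fold). The 1129 genes at least 2-fold lower outnumber the 558 higher and gather at low signals, while SLC5A3 lies high on both axes.

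The largest differences were genes that were close to silent with one hairpin. PTGFRN (chr1:116909916-116990353), which encodes an immunoglobulin-family membrane protein that binds tetraspanins, had signals of 4.01, 2.41 and 14.4 with shRNA #1 and 964, 979 and 926 with shRNA #2 (log2 ratio 7.22, standard error 0.45, adjusted p = 1.86e-06). The NS shRNA libraries held 10.5, 3.93 and 7.39, so that the gene was high with shRNA #2 alone among the 3 hairpins. MAGEA12 on chromosome X (chrX:152733757-152737669), a germline gene of the MAGE family, gave 5.35, 8.84 and 7.69 with shRNA #1 and 1148, 1161 and 1231 with shRNA #2 (log2 ratio 7.18, standard error 0.17, adjusted p = 8.93e-09). CSAG1, whose annotated end lies 35 bases from MAGEA12, rose from 5.35, 3.21 and 4.8 to 439, 457 and 515 (log2 ratio 6.45), and both genes had NS shRNA means below 1. Both belong to families with near-identical copies, among which reads can be split, so their levels are uncertain. PTGFRN, MAGEA12 and CSAG1, at means of 6.94, 7.29 and 4.46 with shRNA #1, passed the filter of 10 only through shRNA #2. The filter thus fixed their direction in advance, and their adjusted p-values are no support for it.

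Some of the other genes higher with shRNA #2 were expressed in all libraries. SLC5A3, which encodes the sodium-coupled myo-inositol transporter and lies within the MRPS6 locus, had 7119, 6999 and 6219.7 with shRNA #1 and 75140.4, 73795 and 67478 with shRNA #2 (log2 ratio 3.41, adjusted p = 2.03e-09). Its NS shRNA mean of 18853 lay between the hairpins without overlap. CDH11, the mesenchymal cadherin-11, went from 1103, 1097 and 1120.4 to 12481, 12623 and 11472 (log2 ratio 3.46), with an NS shRNA mean of 1973. MAL2, a protein of apical transport in epithelia, went from 312, 317 and 308 to 4594, 4408 and 4655 (log2 ratio 3.86). The cholesterol exporter ABCG1, the phospholipid flippase ATP8A1, the neurotrophin NTF3 and the neurotrophin receptor NGFR were also among the 15 largest increases, with log2 ratios of 3.86, 4.55, 4.01 and 3.26. LINC01133, FBXL16, RANBP3L and KCNMB4 had log2 ratios of 4.85, 3.76, 3.66 and 3.28. LINC01133, at a mean of 6.10 with shRNA #1, passed the filter only through shRNA #2, which fixed its direction in advance.

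The 15 largest decreases held several genes better known from other cell types. SLAMF7 (chr1:160739057-160754821), a receptor of lymphocytes and plasma cells, gave 445, 488 and 449.7 with shRNA #1 and 4.99, 6.29 and 5.74 with shRNA #2 (log2 ratio -6.12, standard error 0.15, adjusted p = 1.16e-08). SLC16A7, a transporter of lactate and pyruvate, gave 463, 401 and 349 and 19, 11.7 and 5.02 (log2 ratio -5.13), and LCP1, an actin-bundling protein of leukocytes, gave 429, 392 and 358 and 13, 14.4 and 12.2 (log2 ratio -4.80). For these 3 genes the NS shRNA means of 158, 254 and 149 lay between the hairpins. SLAMF7, at a mean of 5.67 with shRNA #2, passed the filter only through shRNA #1, which fixed its direction in advance. The general leukocyte marker PTPRC was at most 2.41 in the 6 knockdown libraries, while CD14 and CD68 of the same marker list were expressed in them, as given at the end. EPB41L3 and SP140, by contrast, were high with shRNA #1 alone. EPB41L3 had 411, 424 and 406 with shRNA #1, 20.9, 17.1 and 19.4 with shRNA #2 and an NS shRNA mean of 9.17, and SP140 had 829, 890.0 and 879, 65.8, 57.5 and 61.7 and 96.9. CLDN11, a claudin of tight junctions, was low with shRNA #2 alone, at 23.9, 22.5 and 23.7 against 463, 475 and 454 with shRNA #1 and an NS shRNA mean of 801. FOXA2, PCSK1N and SLCO1B3 followed with log2 ratios of -4.53, -3.66 and -3.62. CSF3 belongs to the cytokines and the other 5, RNU4-1, RN7SK, RMRP, RPPH1 and RNU4-2, to the small structured RNAs.

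**Figure D2:**
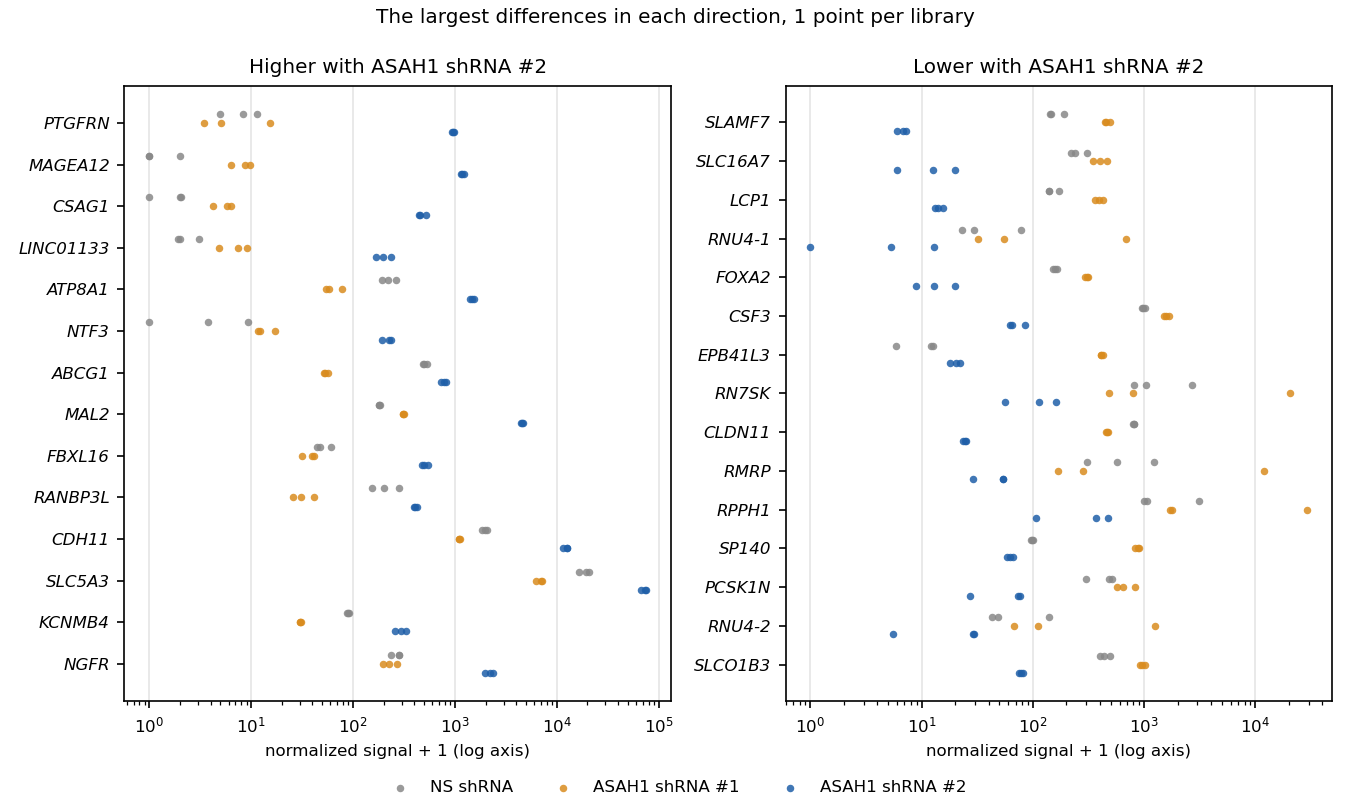
Normalized signal plus 1 on a log axis for 14 of the 15 genes with the largest increases and the 15 with the largest decreases, 1 point per library (grey, NS shRNA; orange, shRNA #1; blue, shRNA #2). The orange and blue points are apart for every gene, PTGFRN and MAGEA12 are near the floor in the grey and orange libraries, and RN7SK, RMRP and RPPH1 owe their highest value to 1 orange library.

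Genes of the sphingolipid pathway differed in both directions. Of 36 members tested, 15 rose (41.7%, against 32.3% of all genes) and 15 fell (41.7%, against 31.5%) with shRNA #2, and the median log2 ratio was -0.10. SPHK1, which makes sphingosine-1-phosphate from sphingosine, had 1587, 1755 and 2119.7 with shRNA #1 and 856, 592 and 852 with shRNA #2 (log2 ratio -1.26, standard error 0.15, adjusted p = 8.84e-05), against 422 with NS shRNA. It was highest with shRNA #1 and lowest with NS shRNA, and the 3 groups did not overlap. SPNS2, the exporter of sphingosine-1-phosphate, also fell (log2 ratio -1.14). CERK, which phosphorylates ceramide, rose from 1202, 1147 and 1068 to 2395, 2299 and 2184 (log2 ratio 1.01), and the ceramide synthase CERS1 rose from 13.4, 15.3 and 20.2 to 121, 61.1 and 117 at a low level (log2 ratio 2.50).

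Lysosomal genes were mostly lower with shRNA #2. Of 40 members, 24 fell (60%, against 31.5% of all genes) and 6 rose (15%, against 32.3%), with a median log2 ratio of -0.20. NPC1, which exports cholesterol from the lysosome, had 14824, 14613 and 13508 with shRNA #1 and 8320.5, 8321 and 7254 with shRNA #2 (log2 ratio -0.85), both above the NS shRNA mean of 6356. The heparan sulfate hydrolases NAGLU and SGSH and the protective protein CTSA also fell, with log2 ratios of -1.01, -0.62 and -0.63. TFEB, a transcription factor that drives lysosomal genes, went the other way, from 357, 349 and 368 to 713, 605 and 751 (log2 ratio 0.94).

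**Figure D3:**
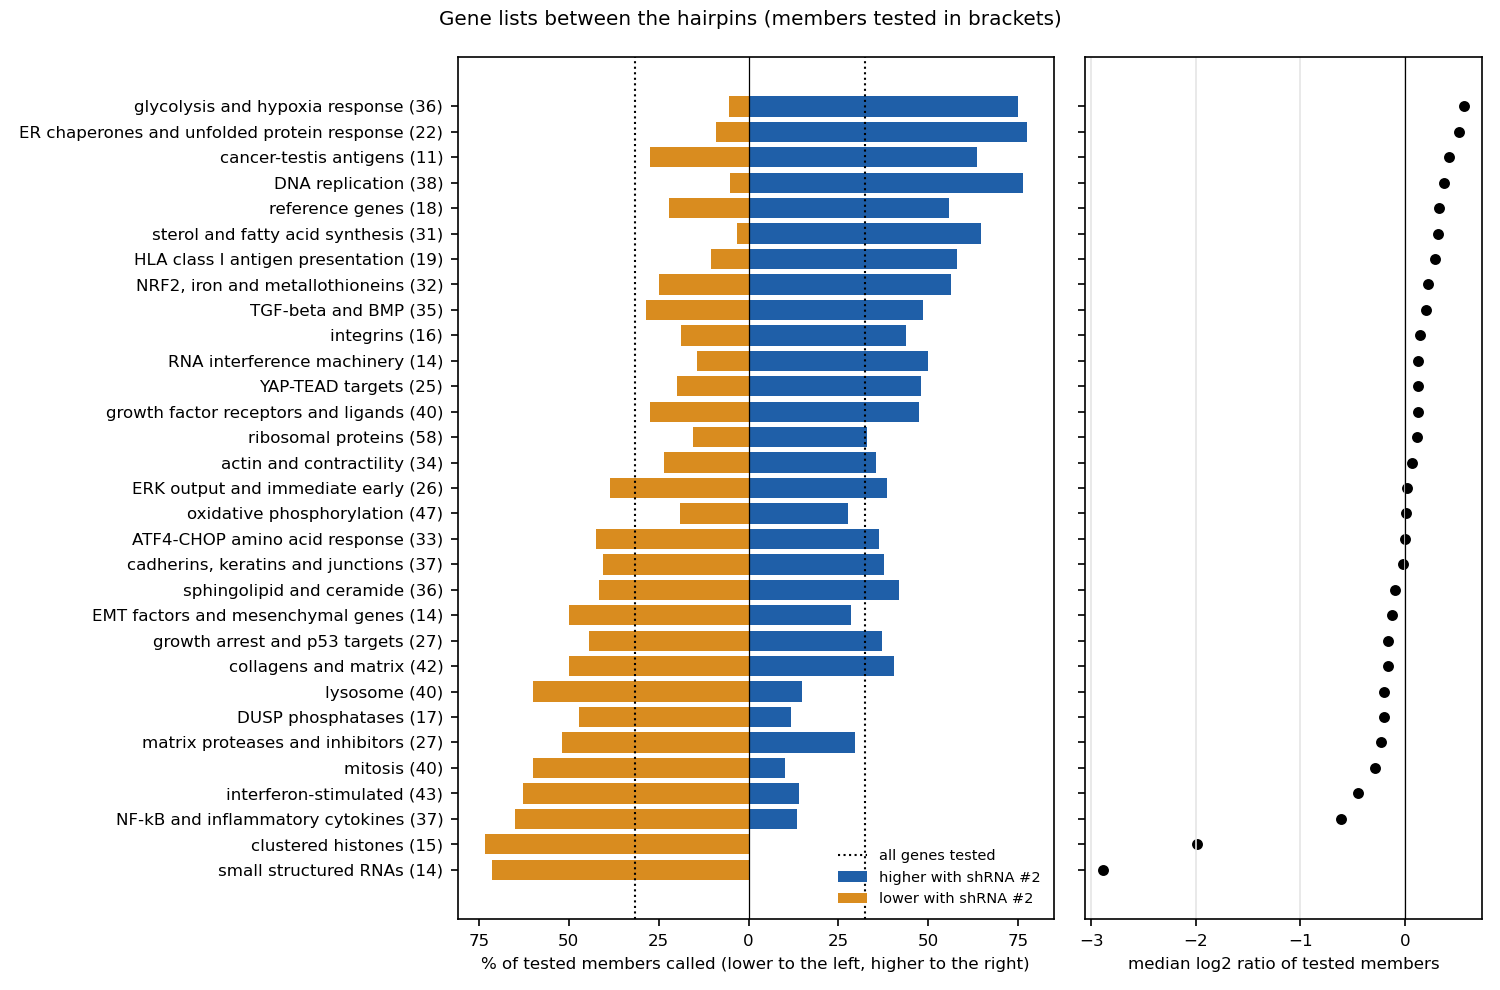
For each gene list, the bars give the percentage of tested members called higher (blue, to the right) or lower (orange, to the left) with shRNA #2 at an adjusted p below 0.05, the dotted lines the 32.3% and 31.5% of all genes tested, and the points the median log2 ratio of the members. Glycolysis, ER chaperone and DNA replication lists pass the dotted line on the right, and cytokine, interferon, mitosis and histone lists on the left.

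Inflammatory cytokine genes were lower with shRNA #2. Of 37 members of the NF-kB and cytokine list, 24 fell (64.9%, against 31.5%), 16 of them at least 2-fold, and 5 rose (13.5%), with a median log2 ratio of -0.61. CSF3, the granulocyte growth factor G-CSF, had 1563, 1512 and 1669 with shRNA #1 and 63.8, 61.1 and 84 with shRNA #2 (log2 ratio -4.50, standard error 0.12, adjusted p = 1.6e-08). IL24, a cytokine of the IL-10 family, had 18964, 19055 and 19372 and 2412, 2495 and 2574 (log2 ratio -2.94, standard error 0.043, adjusted p = 4.98e-10). The control separated these genes, since CSF3 had an NS shRNA mean of 986, above shRNA #2, and IL24 one of 512, below both hairpins. TNFAIP3, which encodes the NF-kB inhibitor A20, went from 6243, 6220.3 and 5901 to 1349.7, 1269 and 1323 (log2 ratio -2.22), and IL1B from 9279.9, 9159 and 9078 to 2715, 2824 and 2885 (log2 ratio -1.71), while their NS shRNA means were 1412 and 4313. CCL2, a monocyte chemokine, was far lower with both hairpins, from an NS shRNA mean of 6365 to 123, 85.1 and 120.1 with shRNA #1 and 5.99, 7.19 and 9.33 with shRNA #2 (log2 ratio -3.70). IL6 and CXCL8, named after their values were seen, moved less, with log2 ratios of -0.60 and -0.46.

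The chemokine genes CXCL1, CXCL2 and CXCL3 lie near each other on chromosome 4 and have closely related promoters, and only the last 2 fell with shRNA #2. CXCL2 had 4802, 4719 and 4963 with shRNA #1 and 1429, 1509 and 1573 with shRNA #2 (log2 ratio -1.68, adjusted p = 4.03e-08), and CXCL3 had 487, 383 and 440.1 and 145, 169.9 and 172 (log2 ratio -1.42, adjusted p = 7.93e-06). CXCL1 had 4865, 4974 and 5089.7 and 4830.1, 5432 and 5526, with groups that overlapped (log2 ratio 0.08, adjusted p = 0.261). Without shRNA #2 replicate 1 its log2 ratio was 0.14 and the adjusted p 0.0482, so that the call for CXCL1 turned on that library. CXCL1 and CXCL3 were named, and these promoters chosen, after their values were seen. Reads can be split between these similar genes, and whether the ratios differ between genes was not tested. Their 200 bases before the annotated start are shown because all 3 hold the kappaB motif that NF-kB binds, searched as GGGA and TTTCC with 1 base of any kind between them, at 78 or 79 bases before the start. Sequences here and below are RefSeq's for GRCh38.p14, 5′ to 3′ on the strand of the gene, with the motif in capitals on either strand.
CXCL1 (chr4:73869193-73869392, plus strand): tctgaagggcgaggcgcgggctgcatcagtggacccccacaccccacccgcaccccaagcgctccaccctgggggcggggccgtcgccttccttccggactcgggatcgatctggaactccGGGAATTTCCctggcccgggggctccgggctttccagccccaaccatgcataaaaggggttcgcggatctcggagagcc
CXCL2 (chr4:74099196-74099395, minus strand): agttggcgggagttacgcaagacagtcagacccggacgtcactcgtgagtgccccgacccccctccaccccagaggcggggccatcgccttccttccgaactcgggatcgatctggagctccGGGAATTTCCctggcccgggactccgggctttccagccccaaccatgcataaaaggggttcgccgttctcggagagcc
CXCL3 (chr4:74038690-74038889, minus strand): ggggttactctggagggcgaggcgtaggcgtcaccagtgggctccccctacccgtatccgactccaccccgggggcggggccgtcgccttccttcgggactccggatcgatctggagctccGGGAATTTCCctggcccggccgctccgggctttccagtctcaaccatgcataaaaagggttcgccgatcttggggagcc
Compared position by position over the last 100 bases without gaps, CXCL1 and CXCL3 were identical at 90 and CXCL1 and CXCL2 at 73, where a shift of 1 base lowers the count. The motif was held by 10 of the 27 list members with a promoter sequence (37%) and by 0.579% of all 27305 promoters of 300 bases. The median log2 ratio was -0.52 for the 10 members with it and -0.61 for the 17 without. Across all 65 tested genes with the motif it was -0.16.

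Interferon-stimulated genes were also lower with shRNA #2. Of 43 tested, 27 fell (62.8%, against 31.5%) and 6 rose (14%), with a median log2 ratio of -0.44. RSAD2, which encodes the antiviral enzyme viperin, had 166, 178 and 171 with shRNA #1 and 46.9, 27.9 and 26.6 with shRNA #2 (log2 ratio -2.36, standard error 0.21, adjusted p = 1.42e-05). OASL, a homolog of the oligoadenylate synthetases, had 1229, 1246 and 1226 and 285, 327 and 309 (log2 ratio -2.00, standard error 0.071, adjusted p = 8.6e-08). Both were higher with shRNA #1 than with NS shRNA and lower with shRNA #2, as their NS shRNA means were 85.8 and 675. ISG20, DHX58 and IFI44 fell with log2 ratios of -1.90, -1.65 and -1.59. IFIT1, IFIT2 and IFIT3, antiviral RNA-binding proteins encoded on the long arm of chromosome 10, fell with log2 ratios of -1.37, -0.66 and -1.19, where IFIT2 and IFIT3 were named after their values were seen. That arm as a whole was lower with shRNA #2, as given below, and without its 3 genes the list counted 24 lower of 40 with a median of -0.42.

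The interferon-stimulated response element was searched as GAAA repeated after 2 bases of any kind, on both strands, and overlapping matches counted once per promoter. It was held by 20 of the 32 list members with a promoter sequence (62.5%) and by 3.65% of all promoters. The median log2 ratio was -0.52 for those 20 members and -0.47 for the other 12. IFI44 and IFIT1 are shown as a gene outside chromosome 10 and a gene on its long arm, with matches from 18 bases and from 116 and 103 bases before the start.
IFI44 (chr1:78649589-78649788, plus strand): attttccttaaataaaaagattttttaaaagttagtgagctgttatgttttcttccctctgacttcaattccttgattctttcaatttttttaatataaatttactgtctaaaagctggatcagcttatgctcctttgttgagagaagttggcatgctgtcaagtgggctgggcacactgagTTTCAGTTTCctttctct
IFIT1 (chr10:89392423-89392622, plus strand): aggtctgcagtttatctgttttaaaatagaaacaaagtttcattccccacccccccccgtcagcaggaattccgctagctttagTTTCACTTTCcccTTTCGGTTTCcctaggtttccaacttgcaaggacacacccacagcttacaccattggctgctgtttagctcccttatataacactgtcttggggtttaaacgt
IFI44 had signals of 877, 839 and 967 with shRNA #1 and 298, 272 and 323 with shRNA #2. IFIT1 had 1939, 1892 and 2034 and 722, 751 and 799, and its NS shRNA mean of 3028 was above both hairpins. Across all 324 tested genes with the motif the median log2 ratio was 0.01, as over all genes tested.

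The class I antigen presentation genes, several of which are themselves induced by interferon, went the other way. Of 19 members, 11 rose (57.9%, against 32.3%) and 2 fell, with a median log2 ratio of 0.29. HLA-B had 31227, 32153 and 34910.2 with shRNA #1 and 65334, 60106 and 67509.9 with shRNA #2 (log2 ratio 0.97, adjusted p = 1.51e-06). HLA-C and HLA-F rose with log2 ratios of 0.87 and 1.05. For HLA-B, HLA-C and HLA-F the NS shRNA means, 36153, 13239 and 352, lay between the hairpin means, and reads can be split among these similar genes.

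Stress genes of the ATF4 and CHOP axis moved both ways, with 12 of 33 higher (36.4%, against 32.3% of all genes) and 14 lower (42.4%, against 31.5%). The median log2 ratio of 0.01 changed sign under some alternatives. GDF15, a stress cytokine, had 11387, 11236 and 12832 with shRNA #1 and 1497, 1369 and 1678 with shRNA #2 (log2 ratio -2.96, standard error 0.081, adjusted p = 1.63e-08). The NS shRNA mean of 1573 lay within the range of the shRNA #2 libraries, and the shRNA #1 libraries were far above both. DDIT3, which encodes CHOP, had 2506, 2420.2 and 2602 and 943, 1019.5 and 1076 (log2 ratio -1.31) and SESN2 had 2023, 1996 and 2002 and 831, 762 and 855 (log2 ratio -1.30), with NS shRNA means of 451 and 295. PHGDH, the first enzyme of serine synthesis, went from 225, 222 and 239 to 23.9, 42.3 and 33.7 (log2 ratio -2.78), whereas PSAT1, the next enzyme of that pathway, went from 8042, 7639 and 7744 to 13197, 13487 and 13436 (log2 ratio 0.78). The glutamine transporter SLC38A2 rose from 28060.2, 27855 and 25256 to 75247, 80370.1 and 72459 (log2 ratio 1.49). ATF4 itself differed little, at 7176, 7372 and 7817 and 8651, 8118 and 9144 (log2 ratio 0.21, adjusted p = 0.00872), and ASNS did not pass, at 7715, 7765 and 7876 and 8109, 8538 and 8341 (adjusted p = 0.0648). PSAT1 and ASNS were named after their values were seen.

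Chaperones and folding enzymes of the endoplasmic reticulum were higher with shRNA #2. Of 22 members, 17 rose (77.3%, against 32.3%) and 2 fell, with a median log2 ratio of 0.52. HSP90B1, the reticulum's HSP90, had 26890.2, 27862 and 29865 with shRNA #1 and 60857, 58863 and 66417 with shRNA #2 (log2 ratio 1.14, standard error 0.058, adjusted p = 5.88e-07), and HSPA5, the chaperone BiP, had 35678, 37245 and 39654 and 61944, 57003 and 64309 (log2 ratio 0.70, standard error 0.058, adjusted p = 8.55e-06). The NS shRNA mean of HSP90B1, 36830.4, lay between the hairpins and that of HSPA5, 27014, below both. SEL1L, a scaffold of the degradation machinery, and DNAJC3 rose with log2 ratios of 1.22 and 0.99. ERN1, the sensor IRE1, fell from 699, 763 and 548 to 394, 351 and 278 (log2 ratio -0.97), while XBP1, the messenger RNA that IRE1 splices, rose from 6164, 6416 and 7052 to 10565, 9428 and 11329.5 (log2 ratio 0.67). The value of XBP1 was looked up after the others.

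The endoplasmic reticulum stress element, searched as its full 19-base form on both strands, CCAAT and CCACG with 9 bases of any kind between them, was held by 6 of 21 list members with a promoter sequence (28.6%) and by 0.0806% of all promoters. The median log2 ratio was 0.66 for these 6 and 0.42 for the other 15. HSPA5, with a match from 66 bases before its start, and HSP90B1, with matches from 194 and 89 bases, are shown because they are the chaperones described above that hold it.
HSPA5 (chr9:125241344-125241543, minus strand): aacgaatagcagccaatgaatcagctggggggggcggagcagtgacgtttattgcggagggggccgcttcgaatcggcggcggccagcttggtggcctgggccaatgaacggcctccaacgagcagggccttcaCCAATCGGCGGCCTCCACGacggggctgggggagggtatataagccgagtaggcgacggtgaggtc
HSP90B1 (chr12:103930210-103930409, plus strand): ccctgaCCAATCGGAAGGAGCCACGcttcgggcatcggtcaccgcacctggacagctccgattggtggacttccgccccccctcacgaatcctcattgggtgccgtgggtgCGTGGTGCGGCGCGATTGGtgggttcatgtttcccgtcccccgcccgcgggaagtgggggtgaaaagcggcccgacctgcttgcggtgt
A match here is a description of the letters and not of binding, and it was found in 14 of the 11100 tested genes with a promoter sequence, which had a median log2 ratio of 0.37.

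Dual-specificity phosphatases (DUSP), which remove phosphate from MAP kinases among other substrates, had more members lower than higher. Of 17 tested, 8 fell (47.1%, against 31.5% of all genes) and 2 rose (11.8%, against 32.3%), with a median log2 ratio of -0.20. DUSP5, which acts on nuclear ERK, had 11294, 11124 and 11156 with shRNA #1 and 7594, 7210.4 and 7420.0 with shRNA #2 (log2 ratio -0.60, standard error 0.041, adjusted p = 3.08e-06), both far above the NS shRNA mean of 3899. DUSP5 lies on the long arm of chromosome 10, whose genes had a median log2 ratio of -0.54 and a middle from -0.85 to -0.21. Whether the level of that arm bears on the ratio of DUSP5 was not tested. DUSP1 and DUSP10 fell with log2 ratios of -0.60 and -0.72, and DUSP4 rose from 5036, 4816 and 4889 to 8346, 8047 and 8221 (log2 ratio 0.74). DUSP2 had 112, 98.8 and 136 and 97.8, 106 and 101, and DUSP6, named after its value was seen, had 3145, 3079.6 and 3188 and 3253, 3155 and 3165. The groups overlapped for both, with adjusted p-values of 0.302 and 0.647.

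Genes that follow ERK activity were split as evenly as all genes, with 10 of 26 higher (38.5%, against 32.3%) and 10 lower (38.5%, against 31.5%) and a median log2 ratio of 0.02 that changed sign under some alternatives. EGR1, an immediate early transcription factor, had 2034, 1843 and 1816 with shRNA #1 and 469, 484 and 443 with shRNA #2 (log2 ratio -2.02, standard error 0.068, adjusted p = 6.38e-08), and MYC had 16411, 16086 and 15924 and 7599, 8021 and 7200.4 (log2 ratio -1.09). Both were above their NS shRNA means of 270.1 and 6096 with either hairpin. The ephrin receptors EPHA2 and EPHA4 rose with log2 ratios of 1.02 and 1.39, EPHA2 from 18164, 18436 and 18158 to 38984, 35890.3 and 36504.

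Genes of glycolysis and of the hypoxia response were higher with shRNA #2. Of 36 members, 27 rose (75%, against 32.3%) and 2 fell, with a median log2 ratio of 0.57. EGLN3, an oxygen-sensing hydroxylase, had 234, 241 and 275 with shRNA #1 and 1244, 1246 and 1410.1 with shRNA #2 (log2 ratio 2.38, standard error 0.087, adjusted p = 1.06e-07). NDRG1, a stress-induced gene and a target of HIF, had 6596, 6699.9 and 6752 and 23759, 23374 and 23934 (log2 ratio 1.83, standard error 0.038, adjusted p = 5.11e-09). In both genes the NS shRNA mean, 1249 and 23811, was close to shRNA #2 and far above shRNA #1. The glycolytic enzyme ENO1 had 91888, 93593 and 98021 and 185353, 181520.0 and 186476 (log2 ratio 0.97), PDK1 and PFKFB4 rose with log2 ratios of 1.09 and 1.22, and PGK1 with 0.69. VEGFA, the vascular growth factor, had 25858, 25702 and 24826 and 51579.6, 50548 and 49312, above the NS shRNA mean of 9808 with both hairpins (log2 ratio 0.99). The core of the hypoxia response element, ACGTG, is short and was held by 13 of 32 members with a promoter sequence (40.6%) and by 21.6% of all promoters. Among the tested genes with a promoter sequence, 26.7% held it, with a median log2 ratio of 0.02. The median was 0.65 for the 13 members with it and 0.35 for the other 19.

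Sterol and fatty acid synthesis genes rose in 20 of 31 members (64.5%, against 32.3%) and fell in 1, with a median log2 ratio of 0.32. SCD, the stearoyl-CoA desaturase, had 5129, 4872 and 4733 with shRNA #1 and 12070.2, 12797 and 11672 with shRNA #2 (log2 ratio 1.31, standard error 0.051, adjusted p = 1.42e-07), against 23104 with NS shRNA. It lies on the long arm of chromosome 10 and is 1 of the 28 genes there that rose. ELOVL6, MSMO1 and SQLE rose with log2 ratios of 1.09, 1.05 and 0.91. Among the antioxidant and iron genes, 18 of 32 rose (56.2%, against 32.3%) and 8 fell (25%, against 31.5%). GCLM and TXNRD1, targets of NRF2, rose with log2 ratios of 0.94 and 0.81, while the metallothioneins MT1F and MT1X fell with -1.77 and -1.16.

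Genes of DNA replication and of mitosis moved in opposite directions. Of 38 replication genes, 29 rose (76.3%, against 32.3%) and 2 fell with shRNA #2, with a median log2 ratio of 0.37. Of 40 mitosis genes, 24 fell (60%, against 31.5%) and 4 rose (10%), with a median log2 ratio of -0.29. ORC1, a subunit of the origin recognition complex, had 245, 316 and 258 with shRNA #1 and 587, 584 and 636 with shRNA #2 (log2 ratio 1.15, standard error 0.10, adjusted p = 1.56e-05), and MCM3, of the replicative helicase, had 7841, 8320.0 and 8466 and 17067, 15792 and 17367 (log2 ratio 1.03, standard error 0.052, adjusted p = 5.47e-07). PCNA and CDC6 rose with log2 ratios of 0.76 and 0.76. On the mitotic side, the centromere histone CENPA had 627, 627 and 677 and 362, 438 and 391 (log2 ratio -0.70), and the kinetochore gene NDC80 had 3058, 3049.9 and 3265 and 1894, 1940.2 and 2108 (log2 ratio -0.66). MKI67, the gene of the Ki-67 antigen, and the spindle motor gene KIF11 fell with log2 ratios of -0.94 and -0.65, and both lie on the long arm of chromosome 10. Without the 4 genes of that arm, 20 of 36 mitosis genes were lower, with a median of -0.28. CDKN1A, the cell cycle inhibitor p21, was far above the NS shRNA mean of 1284 with both hairpins and differed little between the hairpins, at 5196, 5262 and 5297 and 4727, 4380.2 and 4758 (log2 ratio -0.19, adjusted p = 0.00759). BBC3, the death gene PUMA, fell with a log2 ratio of -1.55.

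Matrix proteases held some wide differences, that of PLAU at high expression and those of MMP9 and ADAMTS1 at low signals. Of 27 protease and inhibitor genes, 14 fell (51.9%, against 31.5% of all genes), 8 of them at least 2-fold, and 8 rose (29.6%, against 32.3%), 5 of them at least 2-fold. Over all genes 7.93% were at least 2-fold lower and 3.92% at least 2-fold higher. PLAU, the urokinase plasminogen activator, had 50904, 51463 and 52474 with shRNA #1 and 6361, 6052 and 6573 with shRNA #2 (log2 ratio -3.03, standard error 0.044, adjusted p = 4.98e-10), and the NS shRNA mean of 20522 lay between. PLAU also lies on the long arm of chromosome 10, whose genes had a median log2 ratio of -0.54. Whether the level of that arm bears on the ratio of PLAU was not tested. MMP1, the interstitial collagenase, had 509, 532 and 544 and 72.8, 62.9 and 63.1 (log2 ratio -2.98), and MMP9, a gelatinase, had 93.6, 87.6 and 101 and 4.99, 7.19 and 5.74 (log2 ratio -3.78). ADAMTS6 had 2726, 2427 and 2241 and 315, 405 and 332 (log2 ratio -2.81), against an NS shRNA mean of 203. ADAMTS1 had 97.6, 118 and 135 with shRNA #1 and, from 4 reads in all, 0.998, 0 and 2.15 with shRNA #2. ADAMTS1, MMP9 and SERPINB2, at means of 1.05, 5.97 and 4.05 with shRNA #2, passed the filter only through shRNA #1. Their fall was fixed in advance, so the filter partly sets these counts.

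Adhesion and mesenchymal genes moved both ways. Of 37 cadherins, keratins and junction genes, 14 rose (37.8%, against 32.3% of all genes) and 15 fell (40.5%, against 31.5%), with a median log2 ratio of -0.02 that changed sign under some alternatives, and of 42 collagen and matrix genes, 17 rose (40.5%) and 21 fell (50%). E-cadherin, CDH1, had 56.2, 33.7 and 36.5 with shRNA #1 and 12, 16.2 and 12.2 with shRNA #2 (log2 ratio -1.55), far below the NS shRNA mean of 448. The desmosomal protein DSP fell from 5363, 5534 and 4507 to 1127, 1236 and 1004 (log2 ratio -2.19). Fibronectin, FN1, fell from 15137, 15383 and 13183 to 4788, 5062 and 4106 (log2 ratio -1.65), as did the repressor SNAI2 with -1.47 and, less, VIM with -0.40. S100A4, a calcium-binding protein linked to motility, rose from 10780.1, 10906 and 12815 to 35516, 34116 and 42075 (log2 ratio 1.69). Of 16 integrins, 7 rose (43.8%, against 32.3%) and 3 fell (18.8%, against 31.5%), with ITGB1 and ITGA3 among the risers (log2 ratios 0.80 and 0.66). The actin gene ACTB had 94803, 91223 and 100995 and 123617, 120187 and 125692 (log2 ratio 0.37, adjusted p = 0.000149), so that values taken relative to it would differ between the hairpins, whereas GAPDH, looked up afterwards, had a log2 ratio of 0.08 and an adjusted p of 0.139. Of 18 genes commonly used for normalization, 10 rose (55.6%, against 32.3%) and 4 fell (22.2%, against 31.5%).

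Signalling ligands and receptors were mixed. Of 35 TGF-beta and BMP genes, 17 rose (48.6%, against 32.3% of all genes) and 10 fell (28.6%, against 31.5%), and of 40 growth factor genes, 19 rose (47.5%) and 11 fell (27.5%). BMP4 had 3285, 3274 and 3541 with shRNA #1 and 15610.4, 16234 and 15743 with shRNA #2 (log2 ratio 2.24), close to the NS shRNA mean of 16882 with shRNA #2. The receptor gene BMPR1B was the reverse, with 57.5, 40.2 and 50 against 3.99, 2.7 and 2.87 and an NS shRNA mean of 3.87 (log2 ratio -3.58). The activin subunit INHBA fell with a log2 ratio of -1.35, and TGFBR1 rose with 1.13. Of the growth factors, FGF5 fell from 169.8, 158 and 136 to 18, 20.7 and 22.2 (log2 ratio -2.87), while VEGFC and EREG rose with log2 ratios of 1.18 and 1.23. Of 25 targets of YAP and TEAD, 12 rose (48%, against 32.3%) and 5 fell (20%, against 31.5%). ANKRD1, on the long arm of chromosome 10, fell from 19234, 19128 and 19193 to 7697, 7560.1 and 8013 (log2 ratio -1.31).

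Of 14 genes of RNA interference, the machinery through which hairpins act, 7 rose (50%, against 32.3% of all genes) and 2 fell (14.3%, against 31.5%), so that the share called in either direction was near the 63.7% of all genes, with a median log2 ratio of 0.13. DICER1 had 1724, 1595 and 1385 with shRNA #1 and 4045, 3926 and 3513 with shRNA #2 (log2 ratio 1.29, standard error 0.086, adjusted p = 2.64e-06), and the NS shRNA mean of 2229 lay between. DGCR8, a partner of DROSHA, and the Argonautes AGO1 and AGO2 rose with log2 ratios of 0.84, 0.57 and 0.52. AGO4 and TARBP2 fell by less, with log2 ratios of -0.26 and -0.30. Among the germline genes of the cancer-testis list, 28 of 39 were below the filter. Of the 11 tested, 7 rose (63.6%, against 32.3%) and 3 fell (27.3%, against 31.5%), with MAGEC1 and MAGEC2 rising (log2 ratios 2.86 and 1.83) and PAGE5 falling (-2.26). MAGEC1 and MAGEA12, at means of 4.40 and 7.29 with shRNA #1, passed the filter only through shRNA #2. PAGE5, at 7.44 with shRNA #2, passed only through shRNA #1. The filter thus fixed the direction of such members in advance, and these shares are partly set by it.

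Of the gene groups with a constant role in all cells, ribosomal proteins and respiratory chain subunits had no call of 2-fold or more, against 11.8% of all genes. Of 58 ribosomal protein genes, 19 rose (32.8%, against 32.3%) and 9 fell (15.5%, against 31.5%), with 0 at 2-fold or more, and of 47 respiratory chain genes, 13 rose (27.7%) and 9 fell (19.1%), again with 0 at 2-fold or more. The median of the respiratory chain list, 0.01, changed sign under some alternatives. The widest was RPS24 on the long arm of chromosome 10, which fell from 11934, 11334 and 11660.1 to 6179, 6919 and 6615 (log2 ratio -0.83).

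RNAs without a poly(A) tail formed a separate pattern. The labels' protocol and the study's methods name oligo-dT selection of messenger RNA, while the design text names ribosomal RNA depletion, so it is unsure which was used. RN7SK, the RNA that holds the elongation factor P-TEFb inactive, had 20632, 792 and 479 with shRNA #1, 112, 54.8 and 159 with shRNA #2 and 809, 2670.3 and 1042 with NS shRNA. Replicate 1 of shRNA #1 was the high library, and the other libraries of that hairpin were below the NS shRNA libraries but above those of shRNA #2. RMRP and RPPH1, the RNAs of RNase MRP and RNase P, were also highest in that library, at 11926 and 29169. Together the small structured RNAs took 0.356% of the reads of shRNA #1 replicate 1, from 0.0187% to 0.0261% of its other replicates and from 0.00732% to 0.0105% of the shRNA #2 libraries. The list of these RNAs was written after the values had been seen, and RNU4-1, at a mean of 5.43 with shRNA #2, passed the filter only through shRNA #1. With all libraries, 10 of 14 such RNAs were lower with shRNA #2 (71.4%, against 31.5% of all genes) and 0 higher (against 32.3%). Their median log2 ratio was -2.89. Without shRNA #1 replicate 1, 8 were lower with a median of -1.74. The log2 ratio of RN7SK was -4.31 (adjusted p = 0.00992) with that library and -2.62 (adjusted p = 0.000559) without it. For RMRP and RPPH1 it was -4.25 and -4.06 with the library and -2.33 (adjusted p = 0.000326) and -2.71 (adjusted p = 0.00203) without it. With all libraries and no trend of the variance on the level, RMRP did not pass (adjusted p = 0.0633).

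Replication-dependent histone messenger RNAs, which as a rule end in a stem-loop instead of a poly(A) tail, followed. The stem-loop was searched as GG, CTTTT, AG and GCC in a row, with any 2 bases after GG and any 1 base on either side of AG, on the strand of the transcript, in the last 200 bases of GENCODE v44 transcripts. It was found in 0.121% of 61228 genes and in 30 of the 32 tested histone genes with a HIST symbol. A match in any annotated transcript of a gene was enough. It therefore does not show that the RNA counted for that gene lacked a poly(A) tail, which was not tested. It is shown for HIST1H1C (chr6:26055740-26056470), HIST1H2BD (chr6:26158121-26171349) and HIST1H4C (chr6:26103933-26104337) because the 3 forms cover most of the group, with all letters in capitals as the whole is the motif.
HIST1H1C: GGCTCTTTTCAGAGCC
HIST1H2BD: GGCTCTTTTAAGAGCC
HIST1H4C: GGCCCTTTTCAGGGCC
Of the 30 genes, 17 were lower with shRNA #2 and 0 were higher, against 31.5% and 32.3% of all genes. A log2 ratio below 0 was found for 29, with a median of -2.40 over the 30. Genes near 0 with shRNA #2, such as HIST1H2AK (means of 21.3 with shRNA #1 and 1.89 with shRNA #2), passed the filter only through shRNA #1. For such genes a lower value with shRNA #2 was fixed in advance, so the filter partly sets these counts and the median. HIST1H1C had 2906, 2235 and 2504 with shRNA #1, 481, 532 and 546 with shRNA #2 and 1141, 1198 and 984 with NS shRNA (log2 ratio -2.29, standard error 0.096, adjusted p = 2.15e-07), and its 3 groups did not overlap. HIST1H4C depended on 1 library, at 608, 44.2 and 29.8 with shRNA #1 and 11, 9.89 and 20.8 with shRNA #2 (log2 ratio -2.74, and -1.40 (adjusted p = 0.0114) without shRNA #1 replicate 1). Its call was lost without shRNA #2 replicate 1 (adjusted p = 0.0897) or replicate 2 (adjusted p = 0.0661). Without shRNA #1 replicate 1, and with the filter still over all 6 libraries, 16 of the 30 were lower, with a median log2 ratio of -1.29. The list of clustered histones took from 0.0861% to 0.0975% of the reads with shRNA #1 and from 0.044% to 0.0462% with shRNA #2. Of its 15 tested members, 11 were lower (73.3%, against 31.5% of all genes) both with and without shRNA #1 replicate 1.

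**Figure D4:**
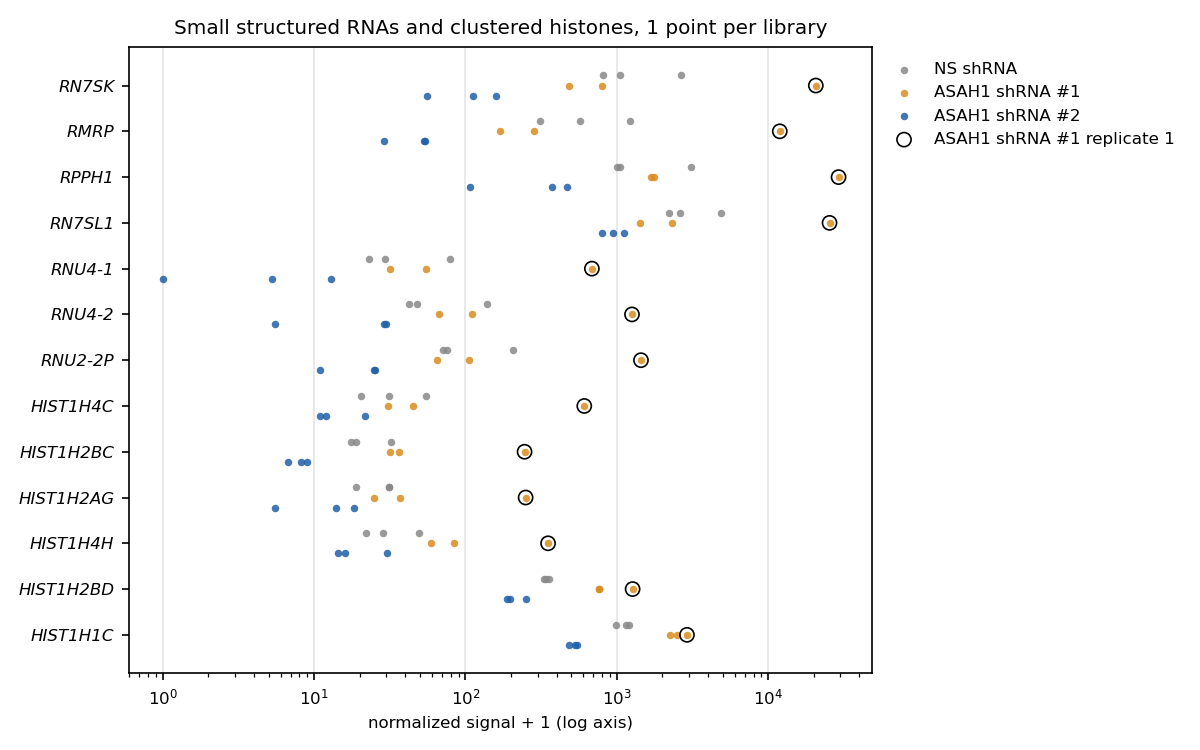
Normalized signal plus 1 on a log axis for 7 small structured RNAs and 6 histone genes, 1 point per library (grey, NS shRNA; orange, shRNA #1; blue, shRNA #2), with shRNA #1 replicate 1 ringed. The ringed library is the highest for every RNA shown, and the blue libraries are below the other orange libraries for every one.

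Genes of the long arm of chromosome 10 were lower with shRNA #2 as a body. This was noticed after the values had been seen and is given as a description. Of the 14240 genes, 13996 (98.3%) could be placed in GRCh38 through RefSeq, and 424 of them have their midpoint at or beyond 40 Mb on chromosome 10. Their median log2 ratio was -0.54, a ratio of 0.689, and the middle of their distribution ran from -0.85 to -0.21. Of the 424 genes, 305 were called lower (71.9%, against 30% of the genes placed elsewhere) and 28 higher (6.6%, against 33.5%). All 13 windows of 5 Mb along the arm with at least 15 tested genes had a median below 0, from -0.68 to -0.25, and 8 of the 10 lowest of the 346 such windows in the genome were among them.

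Relative to the NS shRNA mean, the median over the arm's genes was 0.03, 0.02 and -0.01 in the shRNA #1 libraries and -0.57, -0.56 and -0.58 in the shRNA #2 libraries. The short arm was at 0.14, 0.19 and 0.12 in the same shRNA #2 libraries, and genes elsewhere at 0.03 to 0.04. The low level was thus seen with shRNA #2, in all 3 libraries and in each of the 13 windows, and not with shRNA #1. Among its genes, the death receptor FAS fell with a log2 ratio of -0.77. The arm held 2.98% of the genes tested and 6.81% of the genes called lower. DNA copy number was not analysed here. Without the genes of the arm, an alternative chosen after seeing the data, 4570 genes were higher and 4175 lower.

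**Figure D5:**
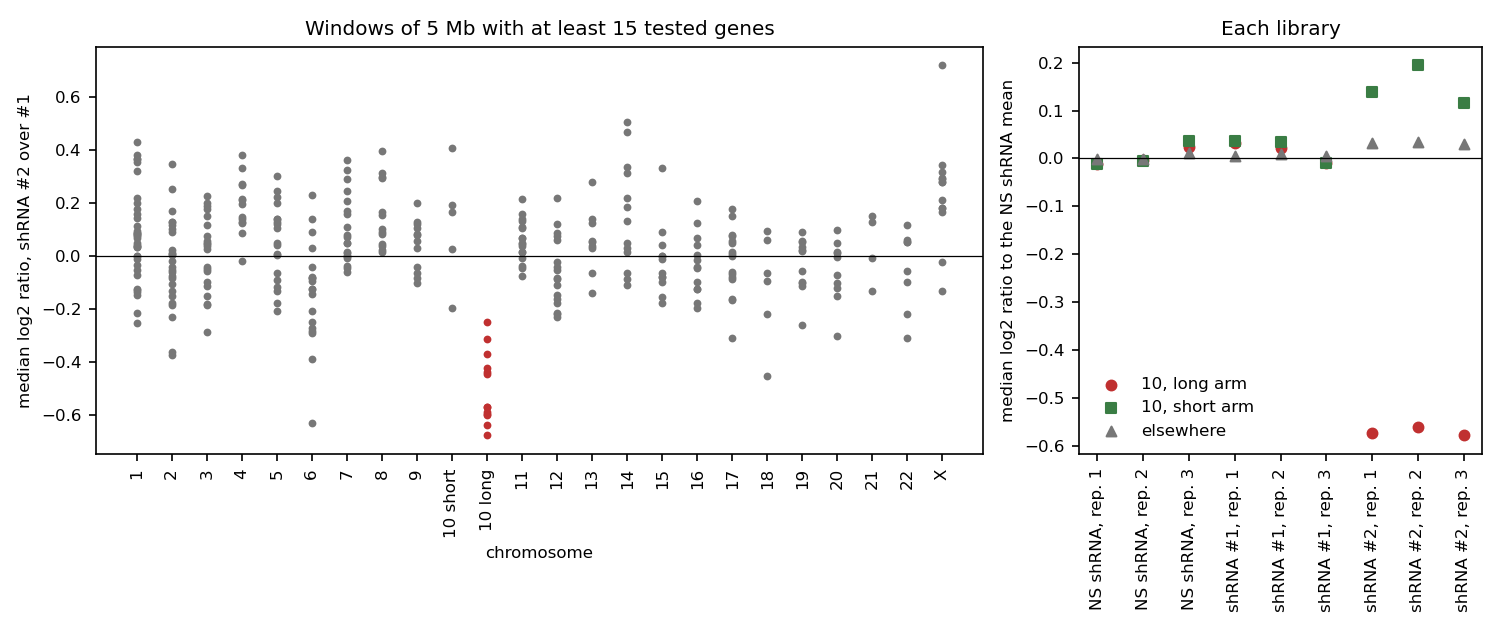
Left, the median log2 ratio of shRNA #2 over shRNA #1 in windows of 5 Mb with at least 15 tested genes, 1 point per window, by chromosome, with the arms of chromosome 10 apart. Right, the median log2 ratio to the NS shRNA mean in each library for genes on the long arm of chromosome 10 (red), on its short arm (green) and elsewhere (grey), where the 3 red points of shRNA #2 lie between -0.56 and -0.58 and those of the other libraries near 0.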

How the data were processed

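RNA from 9 libraries of MDA-MB-231 cells was sequenced, 3 each with NS shRNA, ASAH1 shRNA #1 and ASAH1 shRNA #2. Per the labels, the authors used Trimmomatic 0.36, STAR 2.7.1a, HTSeq and DESeq2 1.28 with hg38, while the study's methods elsewhere give a pipeline of Bowtie2, RSEM and edgeR with TMM. The authors deposited, in 1 table per ASAH1 shRNA, each with the same NS shRNA libraries, a normalized signal per gene and library, which is a read count divided by a size factor. They also deposited base means, fold changes, standard errors, statistics, p-values and adjusted p-values, which were not used. Spreadsheet dates stood in place of 28 symbols in one of them and were replaced from the other.

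Every signal was a whole number of reads over 1 factor per library (100% of values within 0.001 reads), and the NS shRNA reads were the same in both tables, with 0 differences. The tables were joined through the NS shRNA libraries, whose ratio ran from 0.9212 to 0.9275. Limma 3.58.1 in R 4.3.3, with an intensity trend on log2(signal + 1), two-sided, compared the hairpins over the genes whose mean was 10 or more, with Benjamini-Hochberg adjustment over all 14240 and calls at 0.05. Ratios are on that scale and understate those of genes with few reads. A gene under 10 with 1 hairpin passed the filter only through the other hairpin, so its direction was fixed in advance. The same holds for genes under 100 with 1 hairpin and the mean of at least 100 required of the largest differences. Alternatives were pseudocounts of 0.1 and 5, no filter, a mean of at least 50, no trend, upper quartile and TMM scaling, edgeR 4.0.16 and DESeq2 1.42.0 on the recovered reads, all 9 libraries, the replicate block, thinned reads and each library left out. Replicates differed by a chi-square per gene of 7.92 to 21.9, beyond sampling noise.

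The genes named are ASAH1, ACTB, in each direction the 15 with the largest ratio among those called with a mean of at least 100 and groups that do not overlap, up to 6 called members per list with the largest ratio, and a few members for which lists are named. Others are said to have been named after their values were seen, and a few genes under this rule are not reported here. The small structured RNA list was written after the values had been seen. The comparison, its members and the lists were chosen with earlier results of these data known. Positions and promoters are RefSeq's for GRCh38.p14, and the transcripts are GENCODE v44. Tables and plots used matplotlib 3.10.9 and pandas 2.3.3 under Python 3.11.15. The fits were tested on simulated data. Depth per library is given at the start of the results and covers counting error only.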

Additional observations from a re-analysis of the deposited data

How the results depend on the processing

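Of 228 genes with a computed ratio, 219 kept their direction and their side of the threshold under all alternatives that gave them an adjusted p, 0 reversed, 6 lost their call under at least 1 alternative and 3 gained one. DESeq2 gave no adjusted p for 5 genes, RN7SK, RMRP, RPPH1, RNU2-2P and HIST1H4C, which are not counted as lost calls there. Requiring a mean of at least 50 lowered the genes that differ at least 2-fold to 1036 and those at least 2-fold lower to 635, and no filter raised the latter to 1710, as fewer or more weakly expressed genes were tested. With each library left out in turn, the genes that differ ranged from 7954 to 8942 (4056 to 4531 higher, 3898 to 4411 lower), those at least 2-fold apart from 1623 to 1769 (531 to 613 higher, 1082 to 1156 lower) and the log2 ratio of ASAH1 from -0.91 to -0.85. Upper quartile scaling moved the median log2 ratio of all genes to -0.05 and the calls to 4006 higher and 5031 lower. HIST1H4C, HIST1H2AG, RN7SL1, RMRP, NDUFB3 and BMP6 were the genes that lost their call, and the cause was not tested. The median of 27 of 31 lists kept its sign. The replicate numbers share only a number in the labels: the same-number correlations of deviations were 0.056, 0.102 and 0.214, and not every library correlated best with its own number. With the replicate number as a block 9973 genes differed (5119 higher, 4854 lower; 1706 at least 2-fold, 560 higher and 1146 lower), the log2 ratio of ASAH1 was -0.87, and 1 named call changed, that of ASNS, which passed with an adjusted p of 0.0298. Genes under about 50 in signal have few reads, and 492 of the 1129 genes at least 2-fold lower are among them.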

Other observations

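Outside chromosome 10, the chromosome medians of the log2 ratio of shRNA #2 over shRNA #1 were nearer 0. Chromosome 4 had the highest, at 0.25 over 509 genes, of which 51.9% were called higher and 19.6% lower, and chromosome X followed at 0.21 over 461 genes, with 47.7% and 20.2%. Chromosome 6 had the lowest, at -0.14 over 764 genes, with 22.8% called higher and 42.7% lower, and it holds most of the histone genes described above. The genes of chromosome 10 before 40 Mb, 134 in number, had a median of 0.17. These values were computed after the pattern on the long arm had been seen and have no test.

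The lists not described above had calls in both directions. Of 27 genes of growth arrest and p53 targets, 10 were called higher (37%, against 32.3% of all genes) and 12 lower (44.4%, against 31.5%), with a median log2 ratio of -0.16. Of 14 EMT factors and mesenchymal genes, 4 were higher (28.6%) and 7 lower (50%), with a median of -0.12. Of 34 actin and contractility genes, 12 were higher (35.3%) and 8 lower (23.5%), with a median of 0.07. In the last list the smooth muscle actins ACTA2 and ACTG2, which are near-identical and can share reads, had log2 ratios of 0.98 and 0.86, and the actin-binding TAGLN had -1.69.

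Some members of the list of blood cell markers differed between the hairpins, while others of the same list were at or near 0. CD14, a receptor of monocytes, was 207 to 235 with shRNA #1, 948 to 1106 with shRNA #2 and 869.7 to 1065 with NS shRNA. CD68, a lysosomal protein of macrophages, was 2390 to 3228 with shRNA #1 and 796.5 to 1024 with shRNA #2. CD34 was 49.5 to 54.6 with shRNA #1, 85.4 to 95.8 with shRNA #2 and 192 to 229.6 with NS shRNA. In the same libraries PTPRC, CD3E, HBA1 and SPI1 had normalized signals of at most 8.37.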
